A study of Mus musculus with 8 samples.

Results

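Proximal c-Jun peaks are the c-Jun binding sites that lie close to a gene start but outside its promoter. They were taken from the c-Jun ChIP-seq peak list of mouse EpiSCs as the peaks whose centre was within 10 kb of the transcription start site (TSS) of a protein-coding transcript. Peaks with a centre from 1000 bp upstream to 100 bp downstream of such a TSS, or in a coding exon, were left out. The rule gave 3657 proximal peaks, 22.6% of the 16166 peaks of the list (95% Wilson interval 22.0 to 23.3%). The other peaks were 1539 promoter peaks, 10594 distal peaks with no protein-coding TSS within 10 kb, and 376 peaks in coding exons. The peak nearest to the 10 kb limit on the inside was 9994 bp from the TSS of Xirp1 (17.3-fold) and that on the outside 10002 bp from the TSS of Clip1 (8.47-fold). On the downstream side the rule starts at 100 bp, so 366 of the proximal peaks lay less than 1 kb from the TSS.

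The study examined c-Jun at the boundary between naive and primed pluripotency. The deposited c-Jun ChIP-seq covers a primed line with and without a Klf4 transgene, and the peak lists of both lines are set side by side here. EpiSCs are primed pluripotent stem cells derived from the mouse epiblast, and both lines were grown in FN medium with Activin A and bFGF. For the wild type EpiSC line 2 ChIP libraries against c-Jun and 2 of input were made. kEpiSCs, the EpiSC line with Klf4 driven by the CAG promoter and an Oct4-GFP reporter, were given the same number. The labels give the strain CBA/CaJ X C57BL/6J for the wild type ChIP, whereas the study's methods derive EpiSCs from embryos of 129 females and OG2 males, and OG2 mice carry a GFP transgene under Pou5f1 control. Per the labels the cells grew in serum-coated wells without feeders, and cell type markers cannot be checked from binding sites. One peak list was deposited for each line, so no value has a replicate and no p-value is given. All intervals cover only counting error over peaks, flank windows or genes, and not replicates.

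c-Jun is a subunit of AP-1, a family of dimers of Jun, Fos and ATF proteins that bind DNA through a basic region and a leucine zipper. Jun and Fos dimers prefer the site TGAGTCA, which reads TGACTCA on the other strand, and dimers of Jun with ATF proteins also bind the cAMP response element (CRE) TGACGTCA. AP-1 is known for responding to growth factors, stress and cell adhesion, often from enhancers in introns and in the DNA around genes.

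The sequences under the proximal peaks with the strongest enrichment are shown first, because they carry the AP-1 site that the values below turn on. Each was read from GRCm38.p6, the assembly of mm10, on the plus strand from 5′ to 3′, and capitals mark every AP-1 site and CRE on either strand. The peaks in introns of Gpld1, Sun1 and Msmo1, the peak near C1qa and the peak 1064 bp upstream of Krt8 held several sites, and the stretch from the first to the last site is given with 10 bases on either side.
Gpld1, chr13:24949016-24949116: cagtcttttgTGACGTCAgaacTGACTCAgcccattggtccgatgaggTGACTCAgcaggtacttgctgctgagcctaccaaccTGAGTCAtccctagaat
Sun1, chr5:139215348-139215593: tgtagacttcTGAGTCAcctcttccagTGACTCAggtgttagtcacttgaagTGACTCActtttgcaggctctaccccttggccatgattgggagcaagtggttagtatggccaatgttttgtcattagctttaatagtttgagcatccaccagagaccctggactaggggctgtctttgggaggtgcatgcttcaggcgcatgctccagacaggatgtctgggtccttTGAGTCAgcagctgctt
C1qa, chr4:136907029-136907146: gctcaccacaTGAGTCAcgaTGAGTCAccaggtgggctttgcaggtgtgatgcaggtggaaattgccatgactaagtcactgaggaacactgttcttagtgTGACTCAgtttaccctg
Krt8, chr15:102005421-102005613: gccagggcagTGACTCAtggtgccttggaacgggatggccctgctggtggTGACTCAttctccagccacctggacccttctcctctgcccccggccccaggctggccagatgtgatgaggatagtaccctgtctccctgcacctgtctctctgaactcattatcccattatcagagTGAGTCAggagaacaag
Msmo1, chr8:64726328-64726626: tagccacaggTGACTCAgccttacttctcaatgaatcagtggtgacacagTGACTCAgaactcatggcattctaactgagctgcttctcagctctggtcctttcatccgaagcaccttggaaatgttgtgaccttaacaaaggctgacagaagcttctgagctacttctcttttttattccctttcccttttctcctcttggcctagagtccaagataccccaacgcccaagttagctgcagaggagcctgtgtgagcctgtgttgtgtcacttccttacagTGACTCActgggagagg
Further peaks of this strongest set are shown by 61 bases around the site nearest to the summit.
BC030867, chr11:102245280-102245340: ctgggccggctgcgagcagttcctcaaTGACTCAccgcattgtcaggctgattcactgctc
Defb20, chr2:152481006-152481066: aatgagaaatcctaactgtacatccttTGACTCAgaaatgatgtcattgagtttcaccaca
Pla2g7, chr17:43558745-43558805: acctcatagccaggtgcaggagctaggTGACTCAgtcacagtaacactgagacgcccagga
Rnh1, chr7:141164980-141165040: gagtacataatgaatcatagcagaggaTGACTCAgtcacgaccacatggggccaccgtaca

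Gpld1, which encodes a phospholipase that releases GPI-anchored proteins, had the highest-scoring proximal peak. It lay in intron 3, 5902 bp downstream of the TSS (chr13:24948845-24949262), with a fold enrichment over the local background of 28.1, a −log10 q of 56.0 and 40 reads at the summit. Its 3 AP-1 sites were 32, 6 and 30 bp from the summit and a CRE stood 44 bp away, with gaps of 4 to 29 bp between them. The peak in intron 2 of Sun1, a protein of the inner nuclear membrane, held 4 AP-1 sites at a fold of 20.6. At C1qa, a subunit of complement C1q, 2 of the 3 sites were 3 bp apart, and the peak reached 23.8-fold at 8251 bp upstream. The peak upstream of Krt8, a keratin of simple epithelia, had a fold of 20.8 with 39 reads. Msmo1, an enzyme of cholesterol synthesis, had a peak in intron 2 with a fold of 23.1 and 3 sites.

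All 12 highest-scoring proximal peaks held at least 1 exact AP-1 site, and all 12 overlapped a c-Jun peak of kEpiSCs. These 12 were picked by score, and both traits became more frequent with enrichment. Of all proximal peaks 50.9% held a site in the peak and 27.1% overlapped. In the highest of 5 groups of fold enrichment, 63.0% held a site in the central 200 bp and 64.0% overlapped. The remaining 7 of the 12 were near BC030867, Sec11c, Defb20, Pla2g7, Sbk3, Rnh1 and Lce1m, at folds of 21.2 to 25.5. Their distances to the TSS ran from 282 bp downstream at Sbk3, in intron 1, to 9273 bp upstream at Pla2g7, which encodes a secreted phospholipase. Only Gpld1 among them held a CRE. Of the 12 peaks, 6 lay between genes, 5 in introns of the gene named, and the Krt8 peak lay in the lincRNA Gm36026.

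The fold enrichment of all proximal peaks had a median of 6.16, with quartiles of 4.89 and 7.94 and a range of 2.08 to 28.1. The fold is the authors' value at the summit, in which both the reads and the background are raised by 1. Proximal peaks had a median of 10 reads at the summit and a median width of 189 bp. Distal peaks had a median fold of 6.40 and promoter peaks of 5.29, so proximal peaks stood between them. With so few reads per peak, a peak missed in one list may fall below the threshold and need not be absent.

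The exact AP-1 site was present in the central 200 bp of 1661 proximal peaks, 45.4% (43.8 to 47.0%). Over all 16166 peaks the share was 45.9%. The share was 15.5% (13.7 to 17.4%) in promoter peaks, and the difference of 29.96 percentage points had a 95% Newcombe interval of 27.5 to 32.3. In distal peaks it was 51.0% (50.0 to 51.9%), and proximal peaks were lower by 5.54 percentage points (3.67 to 7.41). In windows of the same length 2 kb to either side of the proximal peaks it was 3.64%, so the peaks held it 12.5 times as often.

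**Figure D1:**
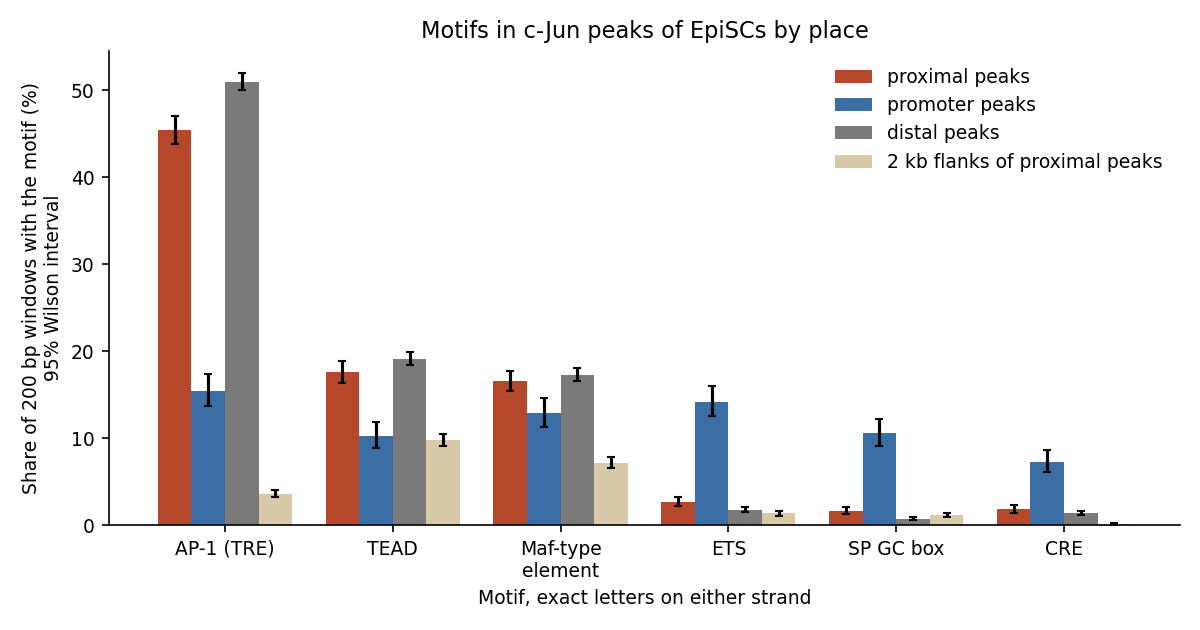
The x axis gives 6 motifs and the y axis the share of 200 bp windows that hold each, in percent, with 95% Wilson intervals, for proximal, promoter and distal peaks of EpiSCs and for the flanks of proximal peaks. The AP-1 site was in 45.4% of proximal peaks against 15.5% of promoter peaks, and ETS, SP and CRE motifs were most frequent in promoter peaks.

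The CRE was rare in proximal peaks, at 67 peaks or 1.83% (1.45 to 2.32%), compared with 7.28% of promoter peaks, 1.44% of distal peaks and 0.150% of the flanks. Among these 67 peaks, 10 also held the AP-1 site. The CRE peaks with the highest score after Gpld1 lay in intron 1 of Csrp1, a LIM protein of the actin cytoskeleton (18.0-fold, 2838 bp downstream), in the 5′ UTR of Zbtb38 (12.2-fold, 195 bp downstream), and in intron 1 of Rnf122 (11.6-fold, 1560 bp downstream). In the peaks of Csrp1 and Rnf122 no AP-1 site was found, and the CRE stood 4 and 3 bp from the summit. These sequences are shown because the CRE is the only exact site in them.
Csrp1, chr1:135732005-135732065: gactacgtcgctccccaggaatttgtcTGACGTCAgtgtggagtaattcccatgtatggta
Rnf122, chr8:31113362-31113422: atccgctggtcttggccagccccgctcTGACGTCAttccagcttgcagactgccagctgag

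Of 16 motifs searched on both strands, the ETS, SP and TEAD motifs had the largest differences between proximal and promoter peaks after the AP-1 site. The TEAD motif GGAATG was in 17.6% of proximal peaks (16.4 to 18.8%), 10.3% of promoter peaks, 19.1% of distal peaks and 9.79% of the proximal flanks. TEAD proteins are the DNA-binding partners of YAP in the Hippo pathway. Among proximal peaks its share was 18.9% with and 16.5% without the AP-1 site, with intervals that overlapped. The ETS motif CCGGAAG was in 2.71% of proximal and 14.2% of promoter peaks, and the SP motif GGGGCGGGG in 1.64% and 10.6%. The Maf-type element TGACNNNGC shares its first letters with an AP-1 site and can overlap it, and it was in 21.1% of proximal peaks with an AP-1 site, 12.7% of those without one and 7.18% of the flanks.

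Among motifs of pluripotency factors, those of OCT and SOX proteins were close to their share in the flanks and those of ESRRB and KLF proteins above it. The OCT motif ATGCAAAT was in 1.26% of proximal peaks and 1.13% of flanks, and the SOX motif ACAATGG in 3.01% and 2.57%. The ESRRB motif TCAAGGTCA was in 1.64% (1.28 to 2.11%) and 0.834% (0.650 to 1.07%), which is 1.97 times as often. The KLF motif CCACACCC was in 3.42% (2.88 to 4.06%) and 2.12% (1.81 to 2.48%). Over all EpiSC peaks the ESRRB and KLF shares were 1.31% and 3.42%. They were 1.32% and 3.58% in distal peaks, and 0.520% and 2.73% in promoter peaks. Proximal minus distal was 0.319 percentage points (-0.114 to 0.826) for ESRRB and -0.159 (-0.816 to 0.564) for KLF, and both intervals hold 0.

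Of the proximal peaks, 1662 (45.4%) held neither exact site in the peak or in the central 200 bp. All 31 sequences that differ from TGAGTCA or TGACGTCA by 1 base were counted in them, a search that was chosen after the values had been seen. Of these, 16 were at least 2 times as frequent in the peaks as in their flanks. Several of the 16 were rare, such as CGACGTCA in 4 of 1662 peaks and 4 of 3324 flank windows, with intervals that overlapped. TGATGTCA, which is C4T of the CRE with positions counted from 1 at the 5′ end, was in 5.17% (4.21 to 6.35%) of these peaks and 0.662% of the flanks. TGCGTCA, A3C of the AP-1 site, was in 3.73% against 0.361%. TGAGGTCA, C4G of the CRE, was in 6.68% against 1.47%, and TTAGTCA, G2T of the AP-1 site, in 8.12% against 1.93%. At the other end TGAGTTA, C6T of the AP-1 site, was in 2.29% of peaks and 2.71% of flanks.

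Peaks with more AP-1 sites were more enriched. The median fold was 5.47 in the 1794 proximal peaks with no site inside the peak, 6.73 in the 1468 with 1 site, 7.94 in the 345 with 2 and 10.2 in the 50 with 3 or more. The quartiles were 4.68 to 6.84 for no site, 5.32 to 8.21 for 1, 6.12 to 10.9 for 2 and 7.04 to 13.2 for 3 or more. They overlapped between neighbouring groups but not between no site and 3 or more. Peaks with more sites were also wider, with median widths of 172.5, 195, 254 and 456.5 bp in the same order, and a wider peak has more room for a site. The peaks with most sites lay 6096 bp upstream of Ahnak, a large scaffold protein under the plasma membrane, and 1210 bp upstream of Coq8b, each with 5 sites. They were 9.52-fold and 9.38-fold enriched, and the farthest sites were 593 and 359 bp from the summit.

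**Figure D2:**
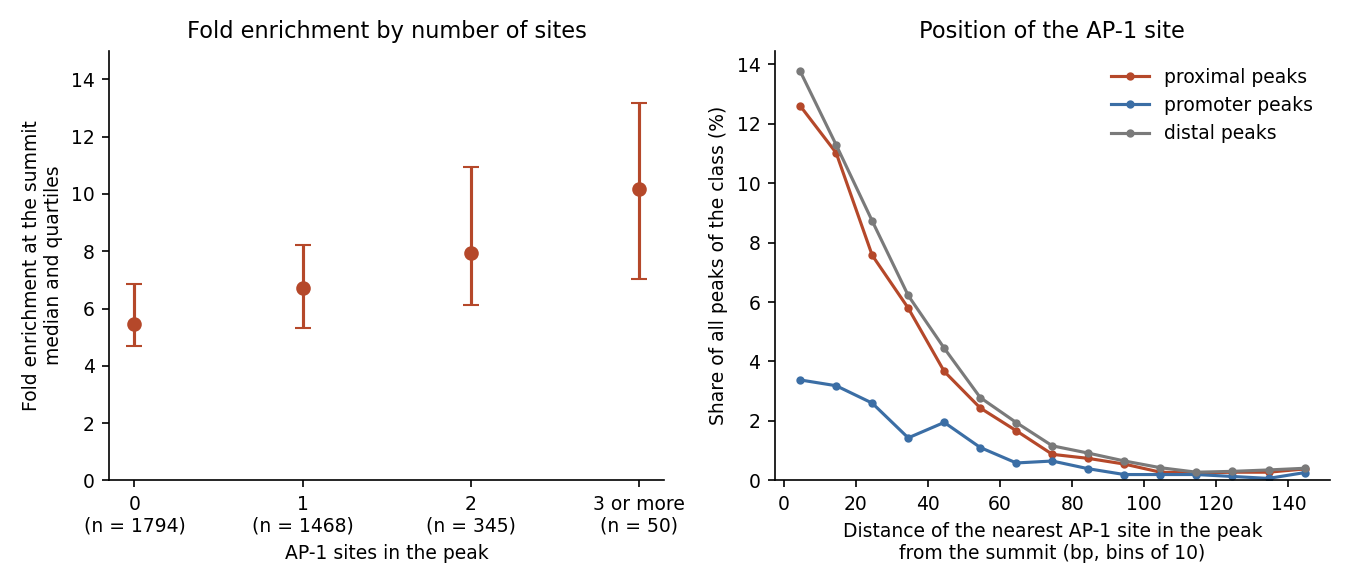
The left plot gives the median and quartiles of the fold enrichment at the summit (y axis) for proximal peaks by the number of AP-1 sites in the peak (x axis), rising from 5.47 to 10.2. The right plot gives the share of all peaks of a class (y axis, percent) whose nearest AP-1 site lies at each distance from the summit (x axis, bp), highest at 0 to 9 bp in the 3 classes.

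The distance from the summit was measured only for sites inside the peak. The width of the peak, a median of 189 bp over all proximal peaks, limits this distance, and no reference placement of sites was computed. In the 1863 proximal peaks with a site anywhere in the peak, the nearest one was a median of 22 bp from the summit (quartiles 10 and 43 bp), and 55.6% were within 25 bp. The median was 23 bp in distal peaks and 29 bp in the 274 promoter peaks with a site.

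Position relative to the TSS separated the proximal peaks into a band just downstream of the TSS and the rest. The 366 peaks from 100 to 1000 bp downstream held the AP-1 site in 22.1% (18.2 to 26.7%), compared with 48.0% (46.3 to 49.7%) of the other 3291, a difference of 25.9 percentage points (21.04 to 30.2). In the 6 bands farther out the share ran from 43.0% at 2 to 5 kb upstream to 50.1% at 5 to 10 kb downstream. The band also had a median GC content of 60.2%, against 49.5 to 52.0% in the other bands, and a mean of 12.5 CpG per 200 bp, against 3.09 to 4.79. Promoter peaks had a median GC content of 63.0%. The share with an AP-1 site in the band was still 6.67 percentage points (2.29 to 11.5) above that of promoter peaks.

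**Figure D3:**
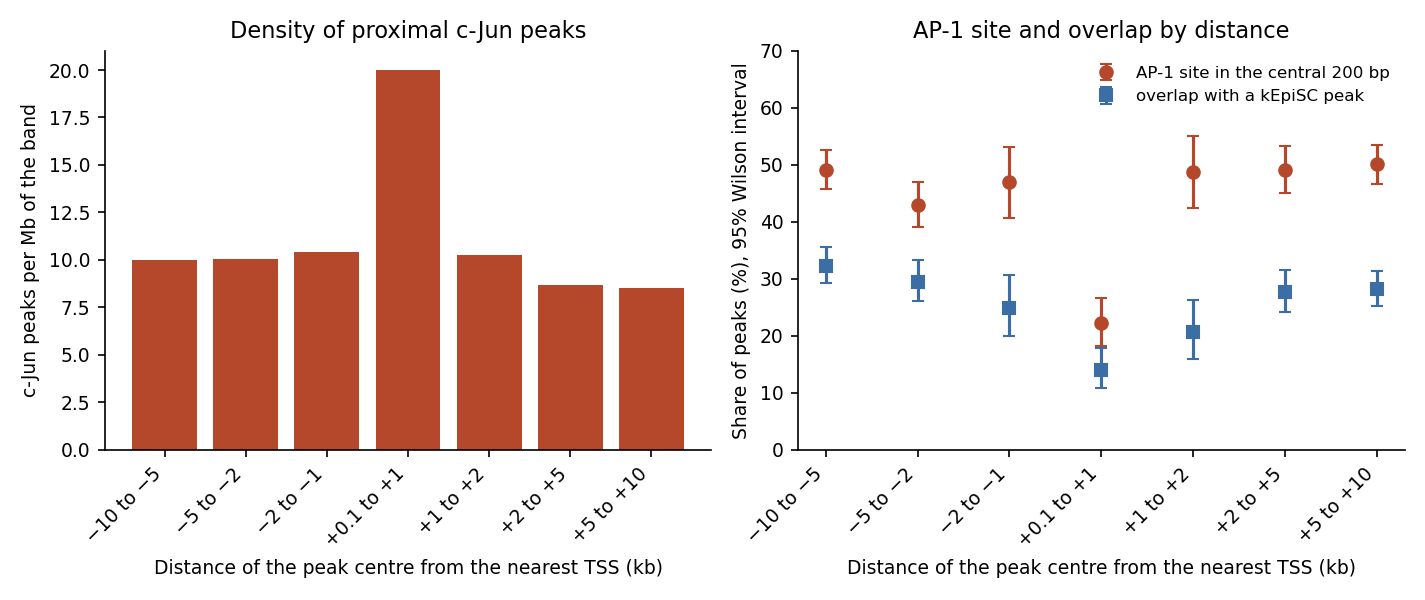
The x axis of both plots is the distance of the peak centre from the nearest TSS in kb, upstream negative. The left y axis is the number of peaks per Mb of genome in the band, highest at 20.0 for 0.1 to 1 kb downstream, and the right y axis is the share of peaks in percent with 95% Wilson intervals, lowest in the same band for the AP-1 site (22.1%) and for overlap with a kEpiSC peak (13.9%).

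Proximal peaks numbered 9.92 per Mb of the genome that the rule covers, compared with 4.79 per Mb in distal and 49.1 per Mb in promoter territory. The density was 20.0 per Mb from 100 to 1000 bp downstream and 8.49 to 10.4 per Mb in the other bands. From 1 to 2 kb it was 10.4 per Mb upstream and 10.2 per Mb downstream. Upstream was higher at 2 to 5 kb, with 10.03 against 8.68 per Mb, and at 5 to 10 kb, with 9.97 against 8.49 per Mb. Of all proximal peaks 46.1% were upstream of the nearest TSS. By annotation 2011 lay in introns, 1356 of them in intron 1, while 1274 lay between genes, 173 in other transcripts, 122 in 5′ UTRs and 77 in 3′ UTRs. Where the transcripts of a gene gave different introns, the lowest number was taken, here and for named peaks. The AP-1 share was 47.1% in introns and 45.7% between genes, but 18.0% (12.2 to 25.8%) in 5′ UTRs. The centre of 12.8% of proximal peaks was in an annotated repeat, against 4.03% of promoter and 10.96% of distal peaks.

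Overlap with kEpiSCs was counted where an EpiSC peak shared at least 1 bp with a peak of the kEpiSC list, which holds 6032 peaks. Of the proximal peaks 991 overlapped one, 27.1% (25.7 to 28.6%), and over all 16166 peaks the share was 28.3%. The share was 14.6% in promoter peaks, 12.5 percentage points lower (10.2 to 14.8), and 31.1% in distal peaks, 3.97 points higher (2.26 to 5.64). Shared proximal peaks had a median fold of 8.08 in EpiSCs and those not shared of 5.82. With all EpiSC peaks in 5 groups of equal size by fold enrichment, 12.1% of proximal peaks overlapped in the lowest group and 64.0% in the highest, and distal peaks went from 15.0 to 64.2%. Weighted to the same makeup of these groups, proximal minus distal was -1.70 percentage points (-3.22 to -0.174), and proximal minus promoter was 7.76 points (5.16 to 10.4).

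**Figure D4:**
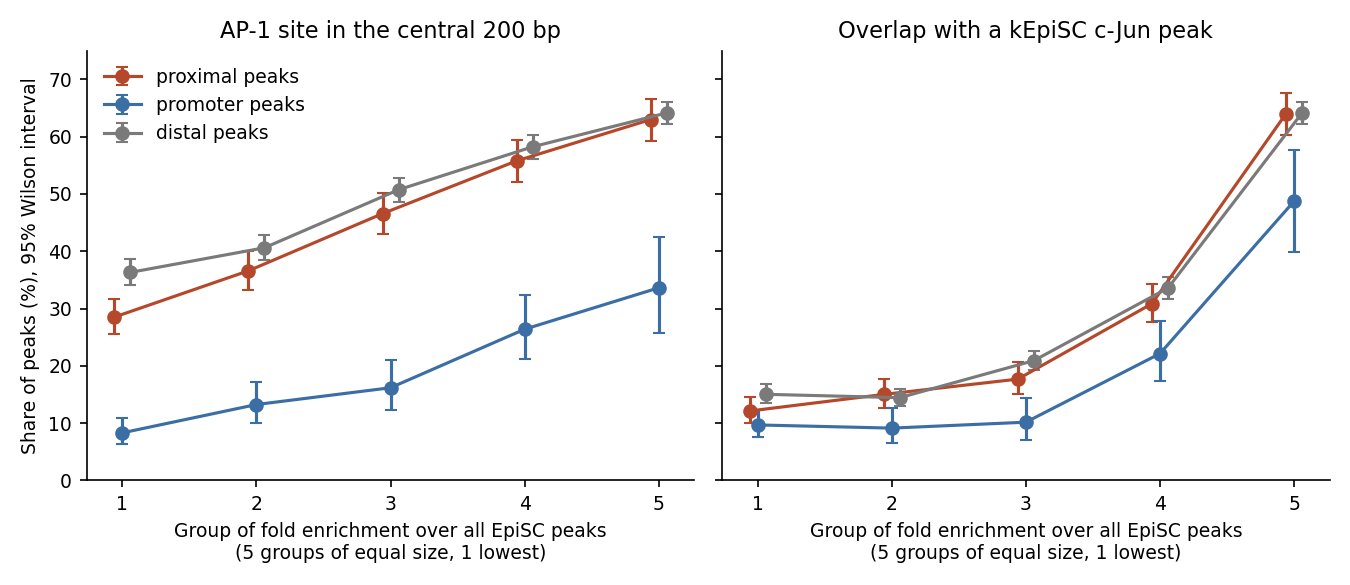
The x axis of both plots is the group of fold enrichment, with all EpiSC peaks in 5 groups of equal size from 1 (lowest) to 5 (highest), and the y axis the share of peaks in percent with 95% Wilson intervals. In proximal peaks the AP-1 site rises from 28.5 to 63.0% (left) and overlap with a kEpiSC peak from 12.1 to 64.0% (right), close to distal peaks and above promoter peaks in the highest group.

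Proximal peaks with an AP-1 site in the central 200 bp overlapped a kEpiSC peak in 34.1% (31.9 to 36.4%) and those without in 21.2% (19.5 to 23.1%). By number of sites in the peak the overlap was 16.1% with none, 31.9% with 1, 55.9% with 2 and 80.0% (67.0 to 88.8%) with 3 or more. Fold enrichment and width moved with the number of sites, as given above, and their part in this was not tested. The highest-scoring proximal peaks with no kEpiSC peak within 1 kb were near Pcyox1 (19.8-fold, in the 3′ UTR, 62632 bp from the nearest kEpiSC peak), Csrp1 (18.0-fold), Cnot10 (15.9-fold, intron 1) and Ier5 (16.5-fold). Ier5 is an immediate early gene, and its peak lay 8081 bp downstream between genes with 2 AP-1 sites. The Pcyox1 peak held neither exact site, nor did those near Xirp1, Nhsl1 and Glp1r, at 17.3-fold, 15.3-fold and 15.9-fold.

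A gene was counted when any of its TSSs was within 10 kb of a proximal peak. This held for 3195 of 21862 protein-coding genes, 14.6%. Of these, 2419 had 1 peak and 74 had 4 or more. A single gene was within reach of 3113 peaks, and for the other 544 the gene cannot be told from the position. Of the genes with a proximal peak 85.5% had no promoter peak, but promoter peaks were found at 7.36% of all protein-coding genes. Proximal peaks were found at 28.8% (26.7 to 31.1%) of genes with a promoter peak and 13.5% (13.0 to 14.0%) of those without one. Genes with more annotated TSSs have more DNA in reach of both kinds of peak. The number of TSSs was not adjusted for, here or in the gene lists below.

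The genes with most proximal peaks were Pou5f1 with 12, Utrn and Src with 9 each, C77080 and Grhl3 with 8 each, and Cchcr1, Tcf19 and Atf3 with 6 each, which are 3 of the 6 genes with that number. The peaks of Cchcr1 and Tcf19 were among the 12 of Pou5f1, which encodes OCT4 and covered 15290 bp on chr17 (chr17:35498972-35514261). There the background solved from the fold and p-value stood at 8.21 to 29.5 times the list's median, and the folds were 2.08 to 7.97. Over the whole list 33 proximal peaks exceeded 5 times the median background. Copies of the Pou5f1 region in the OG2 transgene were not measured here, and their part in the 12 peaks was not tested.

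At Src, a tyrosine kinase of cell adhesion sites, the 9 peaks spread over 47035 bp and 5 annotated TSSs, with folds of 5.29 to 12.7. An AP-1 site was found in 6 of them, and 3 overlapped a kEpiSC peak. The strongest lay in intron 2 (chr2:157447713-157448149), 7740 bp upstream of a TSS, and held no exact site. At Utrn, which links actin to the membrane, the strongest peaks were 13.2-fold in intron 1 and 12.6-fold 9500 bp upstream, each with 2 AP-1 sites and each overlapping a kEpiSC peak. The other 7 Utrn peaks were 3.70-fold to 8.60-fold and none overlapped one. Grhl3, a transcription factor of surface epithelium, had folds of 3.70 to 8.99, a site in 3 of 8 peaks and overlap at 1. Of all proximal peaks 45.4% held a site in the central 200 bp, 50.9% held one in the whole peak and 27.1% overlapped a kEpiSC peak. The background at Src, Utrn, C77080, Grhl3 and Atf3 was at most 2.81 times the median.

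Genes of AP-1 and of related factors such as Mafk and Bach1 carried proximal peaks at 9 of 27, 33.3% (18.6 to 52.2%), against 14.6% of all protein-coding genes. Of the 26 peaks in their reach 12 held the AP-1 site in the central 200 bp, 46.2% (28.8 to 64.5%), close to the 45.4% of all proximal peaks. Fosb, a Fos family member, had the strongest, 16.4-fold at 6944 bp upstream with 2 sites. Mafk, a small Maf protein that pairs with AP-1-like factors, followed with a 13.6-fold peak at 6664 bp upstream. Atf3, a stress-induced ATF protein, had 6 peaks over 42574 bp, the strongest 11.2-fold at 6331 bp upstream. A peak 6978 bp upstream of Junb with 3 sites was 10.8-fold but lay nearer to Hook2. The sites of the Fosb, Mafk and Atf3 peaks are shown as examples of AP-1 sites beside genes of this list.
Fosb, chr7:19316973-19317033: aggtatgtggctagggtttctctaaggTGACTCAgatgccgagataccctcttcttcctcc
Mafk, chr5:139784953-139785013: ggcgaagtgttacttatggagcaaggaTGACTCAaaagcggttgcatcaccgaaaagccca
Atf3, chr1:191224416-191224476: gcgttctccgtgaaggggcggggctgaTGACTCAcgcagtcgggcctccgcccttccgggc

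Of 30 genes known as AP-1 targets 16 had a proximal peak, 53.3% (36.1 to 69.8%) against 14.6% of all genes. The AP-1 site was in 14 of their 27 peaks, 51.9% (34.0 to 69.3%), an interval that holds the 45.4% of all proximal peaks. Plaur, the urokinase receptor, had a 12.4-fold peak 2677 bp upstream, and Txnrd1, a thioredoxin reductase, a 13.2-fold peak in intron 1. The Dusp1 peak, at a gene for a phosphatase of MAP kinases, was 9.52-fold with 2 sites. Hbegf, a growth factor, had a 10.3-fold peak at 9665 bp upstream that was nearer to Slc4a9.

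The list of actin cytoskeleton and focal adhesion genes had the highest share, though it also holds the keratin gene Krt8 and the lamin gene Lmna. A proximal peak was found at 22 of its 37 genes, 59.5% (43.5 to 73.7%) against 14.6% of all genes, with 44 peaks. The AP-1 site was in 14 of these 44, 31.8% (20.0 to 46.6%). Besides Krt8 the strongest were at Cald1, which binds actin and myosin (13.6-fold, intron 1, no exact site), Lmna, the nuclear lamin A (11.2-fold, 5157 bp upstream, the strongest of 5 peaks), and Itgav, an integrin subunit (10.5-fold, 9739 bp upstream). Adherens junction genes had a peak at 15 of 31, 48.4% (32.0 to 65.2%). Ajuba, a LIM protein of cell junctions, had a 14.3-fold peak in intron 2 with no exact site. Plekha7, a protein of adherens junctions, had 6 peaks. Rac1, a GTPase that remodels actin, had a 10.3-fold peak in intron 1.

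**Figure D5:**
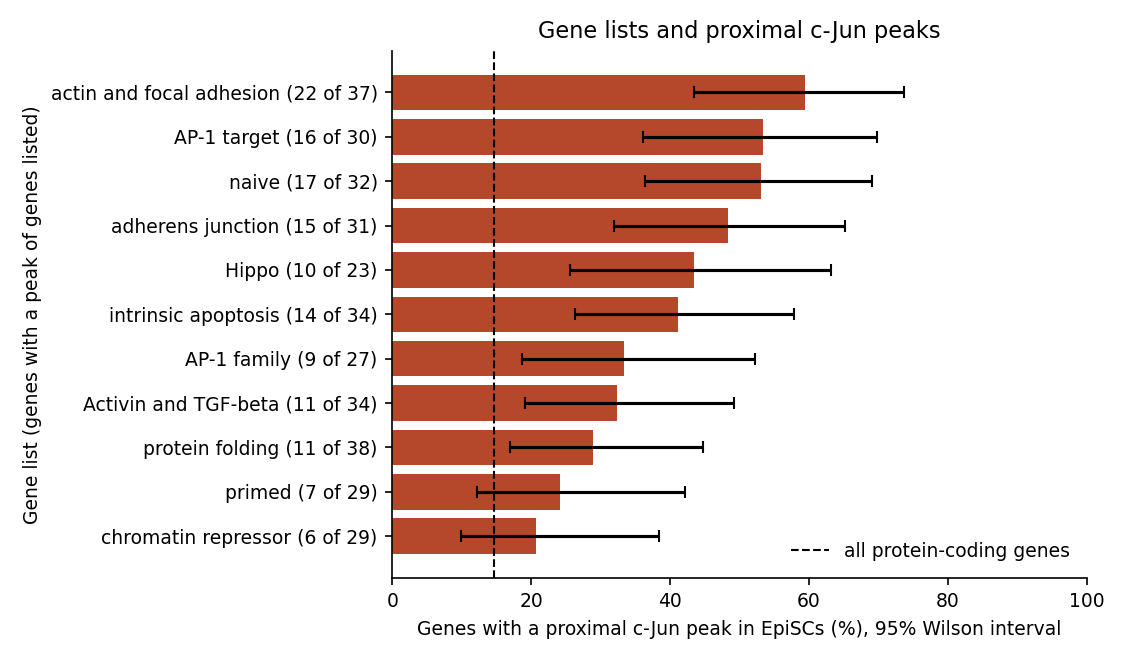
The y axis gives 11 gene lists with the number of genes with a proximal peak of the number listed, and the x axis the share with a peak in percent with 95% Wilson intervals. The dashed line marks all protein-coding genes at 14.6%, and the shares run from 20.7% for chromatin repressors to 59.5% for the actin and focal adhesion list. The lists were chosen with earlier results of these data known.

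Naive pluripotency genes had a proximal peak at 17 of 32, 53.1% (36.4 to 69.1%), and primed genes at 7 of 29, 24.1% (12.2 to 42.1%), an interval that holds the 14.6% of all genes. The 25 peaks of the naive genes held the AP-1 site in the central 200 bp in 6 cases, 24.0% (11.5 to 43.4%), compared with 45.4% of all proximal peaks. Dppa5a had the strongest, 13.0-fold at 3287 bp upstream (chr9:78371228-78371700) with 18 reads and no exact site, and a second peak of 6.16-fold at 4497 bp upstream. Klf4, a naive transcription factor, had an 11.9-fold peak 9349 bp upstream (chr4:55541701-55541928) with an AP-1 site 15 bp from the summit. Klf2, a related factor, had a 9.91-fold peak 7978 bp upstream with 2 sites, which lay nearer to Gm10282. Il6st, a subunit of the LIF receptor, had a 9.90-fold peak 2752 bp upstream with none. These 4 overlapped a kEpiSC peak, at folds of 6.15 to 12.7 there.

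Weaker peaks were found at other naive genes. Esrrb, a nuclear receptor of naive cells, had a 6.16-fold peak in intron 1 with 8 reads and an AP-1 site 223 bp from the summit, outside the central 200 bp, and Gdf3 one of 6.16-fold at 8098 bp upstream. The Nanog peak was 4.76-fold at 4540 bp upstream and the Zfp42 peak 4.11-fold in intron 1 with 5 reads, near the threshold of the list, and neither held an exact site. Pecam1, an adhesion protein of naive cells, had 4 peaks, the strongest 9.52-fold in intron 2 with an AP-1 site. The sequences at Klf4, Klf2 and Esrrb are shown for the site, and that at the summit of the Dppa5a peak for its lack of one.
Klf4, chr4:55541824-55541884: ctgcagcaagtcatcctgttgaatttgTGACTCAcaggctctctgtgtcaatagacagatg
Klf2, chr8:72311053-72311113: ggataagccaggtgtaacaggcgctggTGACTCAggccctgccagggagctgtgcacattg
Esrrb, chr12:86365554-86365614: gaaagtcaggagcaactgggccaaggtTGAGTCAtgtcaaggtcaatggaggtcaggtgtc
Dppa5a, chr9:78371571-78371631: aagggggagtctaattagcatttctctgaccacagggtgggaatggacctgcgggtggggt

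Of the primed genes Etv5, an ETS factor, had an 11.2-fold peak in intron 4 and Utf1 an 8.89-fold peak 6310 bp upstream, within an intron of Kndc1. Etv4 had a 7.53-fold peak in intron 5, the only one of the 7 with the AP-1 site. In kEpiSCs 5.95% of all protein-coding genes had a proximal peak. None of the 29 primed genes had one there (0 to 11.7%), an interval that holds this share. Of the 32 naive genes 6 did, 18.8% (8.89 to 35.3%). Each of these 6 also had one in EpiSCs, as did 82.8% of the 1300 genes with a proximal peak in kEpiSCs.

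Proximal peaks were also found at 14 of 34 genes of intrinsic apoptosis, 10 of 23 Hippo genes, 11 of 34 genes of Activin and TGF-beta signalling, 11 of 38 protein folding genes and 6 of 29 chromatin repressors. Against 14.6% of all genes these were 41.2%, 43.5%, 32.4%, 28.9% and 20.7%, and for chromatin repressors the interval (9.85 to 38.4%) holds the share of all genes. Casp6, an executioner caspase, had a 14.4-fold peak in intron 1 with 2 AP-1 sites, and Xiap, an inhibitor of caspases, an 11.6-fold peak 9753 bp upstream with 2. Hspb1, a small heat shock protein, had a 19.8-fold peak 3059 bp upstream with 31 reads. Stip1, a co-chaperone of HSP90, had a 12.3-fold peak 4362 bp upstream, and Hsp90aa1 a 9.35-fold peak 6973 bp upstream. Of the Hippo genes Axl, a receptor kinase, had an 11.6-fold peak in intron 4, and Ccn2, a target of YAP, a 9.58-fold peak 5957 bp upstream. Tead4 had a 9.41-fold peak in intron 1. Pmepa1, a target of TGF-beta, had a 9.90-fold peak and Dnmt1, the maintenance DNA methyltransferase, a 7.94-fold peak in intron 1. Of 22 listed genes that the study names, 11 had a proximal peak, 50.0% (30.7 to 69.3%), and the others had none. Among these 11, those not given above were Sall4 with a peak of 6.99-fold, Kdm3a with 4.80-fold in intron 3 and Fat1 with 3.70-fold in intron 1. The share over all protein-coding genes includes many that EpiSCs need not express, and expression was not analysed here. All lists were chosen with earlier results of these data known. From this EpiSC c-Jun ChIP-seq the study had already named apoptotic signalling, protein folding, adherens junctions and naive genes. The shares of the matching lists are not independent of those results.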

How the data were processed

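Per the labels and the study's methods, 2 c-Jun ChIP and 2 input libraries per line were fixed for 15 min in 1% formaldehyde, sequenced, mapped to mm10 with Bowtie2 and called with MACS2. Tools named in the submitters' processing notes beside these are bcl2fastq, SAMtools and bedtools, with versions not given in the sources used here. The labels give reads of 50 bp and describe the pull-down with an H3K27ac antibody, while the antibody field and the methods name c-Jun.

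The authors deposited one narrow peak list per line, named beside the first ChIP replicate and possibly pooled. From MACS2 the authors' list holds a deposited score (a whole number from the q-value), a fold enrichment at the summit, the −log10 p-value, the −log10 q-value and the summit offset in bp. Reads and background at the summit were solved from fold and p-value.

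Classes came from the GENCODE vM21 basic annotation (45104 protein-coding transcripts). Exact motif matches on either strand were sought in the central 200 bp of each peak and 2 kb to its sides. Shares have 95% Wilson intervals and differences 95% Newcombe intervals. Named genes were those of the 12 highest-scoring proximal peaks, up to 4 per list, the 8 with most peaks, those the paper names, and the 4 peaks at the top for number of AP-1 sites, CRE, neither site, and no kEpiSC peak within 1 kb. A gene that this rule names is not reported here. The members and lists were chosen with earlier results of these data known. Alternatives covered the annotation, distances, motif windows, overlap and scoring. Functions were tested on simulated data. Other assays of the study and reads per library were left out. Tools were Python 3.11.15, pysam 0.24.0, pandas 2.3.3, scipy 1.17.1 and numpy 2.4.6.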

Additional observations from a re-analysis of the deposited data

How the results depend on the processing

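The 13 results were recomputed under alternatives of annotation, distance, motif window, overlap and scoring, which gave 98 values. None of the 4 differences between classes changed direction, and none of their intervals came to hold 0, but their sizes moved. Proximal minus distal in the AP-1 site, -5.54 percentage points, was -2.96 among higher-scoring peaks, -2.95 with a promoter of 1000 bp on both sides and -8.71 within 5 kb. Proximal minus distal in overlap, -3.97 points, was -2.50 and -6.39 under the last 2 of these and -1.70 when weighted by fold enrichment, and the weighting took proximal minus promoter in overlap from 12.5 to 7.76. The number of proximal peaks was 2023 within 5 kb, against 3657. The share of proximal peaks with the AP-1 site was 57.1% among higher-scoring peaks, 48.0% with a promoter of 1000 bp on both sides, 42.1% within 5 kb, 49.6% within 100 bp of the summit and 50.9% in the whole peak. The share overlapping a kEpiSC peak was 43.0%, 28.6% and 24.6% under the first 3 of these, 19.5% where the kEpiSC peak had to cover at least 50% of the EpiSC peak and 21.3% with centres within 100 bp. The cause was not tested. The number of genes with a proximal peak was 2719 with the gene of the nearest TSS alone. An alternative chosen after seeing the data left out peaks over 5 times the median background, which gave 3624 proximal peaks, 45.6% with the AP-1 site and 26.8% overlapping.

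No paired analysis was possible because neither line has a value for each of its replicates, and for the same reason no replicate was left out. The median was 10 reads per summit, and overlap was not tested against depth.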

Other observations

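The same rule applied to the kEpiSC list gave 1325 proximal peaks, 22.0% of 6032. The AP-1 site was in the central 200 bp of 58.3% (55.6 to 60.9%) of them, in 24.8% of the kEpiSC promoter peaks and in 62.7% of the distal ones. Over all 6032 kEpiSC peaks the share was 58.5%. The kEpiSC proximal peaks had a median fold of 7.09, against 6.16 in EpiSCs, where the share rose with fold. A difference in the share between the lines was not tested. An EpiSC peak overlapped 997 of the 1325. The 328 without one held the site in 49.1% (43.7 to 54.5%) and had a median fold of 6.15, compared with 61.3% (58.2 to 64.3%) and 7.48 for the shared ones.

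Of the 1325, 267 had no EpiSC peak within 1 kb. The highest-scoring of these lay in intron 4 of Ampd1, an AMP deaminase of muscle, at 12.1-fold and 7224 bp downstream. It was followed by peaks 4723 bp upstream of Agfg1 (11.3-fold), in intron 1 of the tubulin gene Tuba1c (10.97-fold) and 3613 bp upstream of Sema3b, a semaphorin (10.6-fold). No exact AP-1 site was found in the peaks of Ampd1 and Sema3b, and 1 was found in each of the others. A proximal peak was found in both lines for 1077 genes, 82.8% of the 1300 genes with one in kEpiSCs and 33.7% of the 3195 with one in EpiSCs. These genes were chosen after their values were seen.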
